A study of Danio rerio with 9 samples.

Results

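The retinoid genes described here are those for uptake, storage, synthesis and breakdown of vitamin A and retinoic acid. They were chosen by gene symbol: the 10 symbols RBP2, LRAT, ALDH1A2, aldh1a3, cyp26a1, cyp26b1, cyp26c1, rdh10a, dhrs3a and stra6 matched 13 identifiers of the 32434 genes in the count table. The symbols were chosen with earlier results of these data known. All 13 identifiers had enough reads to be tested, among 18860 tested genes. RBP2, RDH10 and DHRS3 each matched 2 identifiers, and the name table does not say which of them is the a or the b copy, so these are given by Ensembl identifier. Symbols are printed as that table writes them, in capitals where it uses the human style.

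The study sequenced polyadenylated RNA from whole 5D wild-type zebrafish embryos at 48 hours post fertilization (hpf). BaAQ embryos were held from 6 hpf with 10 µM benzanthracene-7,12-dione, a quinone, and BEZO embryos with 10 µM 1,9-benz-10-anthrone, a ketone, both oxygenated polycyclic aromatic hydrocarbons. Control embryos had the vehicle alone, and all 3 groups carried 1% dimethyl sulfoxide. Each group held 3 vials of 20 embryos in 2 mL, called independent biological replicates by the labels, and each vial gave 1 library. The labels put the exposure temperature at 37 °C, which is well above usual zebrafish culture and may be an error in the record.

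Retinol reaches cells on a carrier protein, enters through the STRA6 receptor, is held by cellular binding proteins and is stored as esters made by LRAT. Retinol dehydrogenases such as RDH10 turn it into retinal, and the aldehyde dehydrogenases of the ALDH1A family turn retinal into retinoic acid, the ligand of the nuclear retinoic acid receptors. DHRS3 takes retinal back to retinol, and the CYP26 cytochromes break retinoic acid down. In the vertebrate embryo this balance patterns the hindbrain, somites, heart, limb or fin buds and eye, while the eye also uses retinal as the chromophore of its opsins.

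Libraries held 8106613 to 14435626 counted reads, so that 3 reads correspond to 0.208 to 0.370 CPM (the reads of one gene for every 1000000 counted in the library). The mean correlation of a library with the others of its group, over log2 CPM of tested genes, ran from 0.9853 to 0.9899 and was lowest for BaAQ 3. As a check of a whole embryo, markers of liver, yolk and intestine, pigment cells, photoreceptors, cartilage, fast muscle and red blood cells were listed. Symbols matched were 14 of 17 listed for liver, 15 of 19 for yolk and intestine, 13 of 15 for pigment cells and 14 of 18 for photoreceptors. For cartilage 14 of 15 were matched, for fast muscle 12 of 17 and for red blood cells 11 of 15. Marker sums and counts below cover matched symbols only. Each matched marker had a read in at least 1 library, which is a low bar. Only 12 of 14 liver, 13 of 15 yolk and intestine and 12 of 15 photoreceptor identifiers had enough reads to be tested. P-values below are Benjamini-Hochberg adjusted over all tested genes, from edgeR's quasi-likelihood test of 1 fit to all 9 libraries, and a gene passed when its adjusted p was under 0.05.

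In BaAQ embryos the retinol receptor gene STRA6, both RBP2 identifiers, the esterifying enzyme gene LRAT and the retinoic acid synthesis gene ALDH1A2 were lower than in Control. Of the 13 identifiers, 5 were lower in BaAQ than in Control, 0 were higher and 8 did not pass. Across all tested genes 5.41% were lower and 10.2% passed in either direction, against 38.5% of these identifiers. Since members were chosen with earlier results of these data known, the shares in this paragraph are for scale and are not a test. With BEZO, 2 of 13 identifiers were lower and 0 higher (15.4%), where 3.35% of all tested genes were lower and 6.44% passed. The BEZO count was 1 without BEZO 3, Control 2 or Control 3, and the count over all tested genes, 1214, was 796 without BEZO 1 and 761 without BEZO 3. The median log2 fold change of the 13 was -0.13 for BaAQ and -0.03 for BEZO, beside 0.004 and -0.001 over all tested genes. Both comparisons use the same Control libraries.

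**Figure D1:**
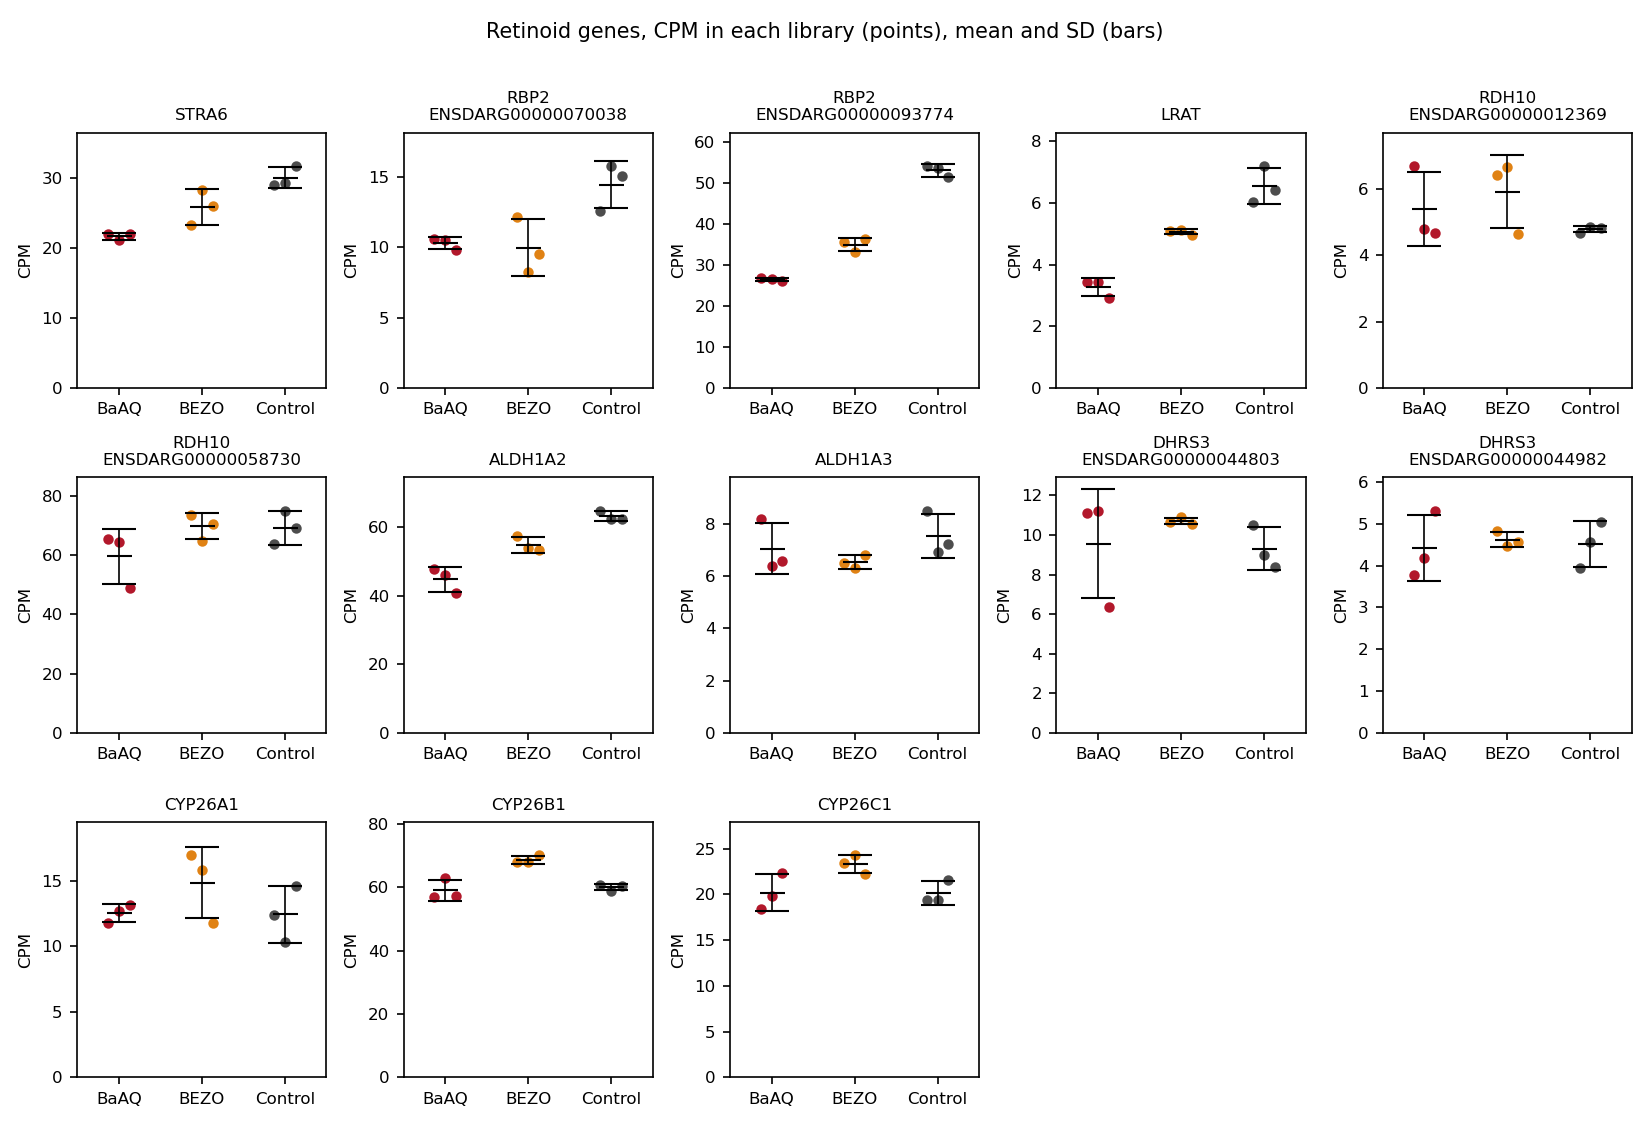
CPM (y axis, from 0) of each retinoid identifier in the 3 BaAQ, 3 BEZO and 3 Control libraries (points), with the mean and SD of each group (bars). BaAQ libraries lie lowest and Control libraries highest for STRA6, RBP2 ENSDARG00000093774, LRAT and ALDH1A2, whereas groups overlap or lie close for the RDH10, DHRS3 and CYP26 genes.

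All 4 identifiers for uptake, binding and esterification were lower in BaAQ. RBP2 ENSDARG00000093774, a cellular retinol-binding protein gene known from intestinal vitamin A uptake in mammals, had 26.7, 26.5 and 26.1 CPM in BaAQ, 35.5, 33.0 and 36.2 CPM in BEZO, and 54.0, 53.6 and 51.3 CPM in Control. No group overlapped another, and the replicates of each group lay within a few CPM of each other. In BaAQ the gene fell to 0.481 of the Control level, with a 95% interval of 0.429 to 0.540 (log2 fold change -1.05 ± 0.08, standard error, adjusted p = 1.62e-08, edgeR). In BEZO it fell to 0.643 of the Control level, with an interval of 0.576 to 0.717 (log2 -0.64 ± 0.08, adjusted p = 1.22e-05, edgeR).

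RBP2 ENSDARG00000070038, the second identifier with that symbol, had 10.6, 10.5 and 9.81 CPM in BaAQ, 12.2, 8.24 and 9.53 CPM in BEZO, and 12.6, 15.8 and 15.04 CPM in Control. Every exposed library lay below every Control library, but BEZO 1 came close to Control 1. Its log2 fold change was -0.56 ± 0.14 with BaAQ (adjusted p = 0.013, edgeR) and -0.58 ± 0.14 with BEZO (adjusted p = 0.0126, edgeR). Without Control 2 the BaAQ value was -0.47 with adjusted p = 0.079, the highest of 15 alternatives whose lowest was 0.00735 (edgeR). The BEZO call ended without BEZO 2, BEZO 3, Control 2 or Control 3, with log2 values of -0.47, -0.54, -0.50 and -0.57, and over all alternatives its adjusted p ran from 0.00434 to 0.0809. Reads could be shared between copies of one gene, since the counting options are not given in the sources used here.

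LRAT, the enzyme that turns retinol into its storage ester, had 3.44, 3.45 and 2.92 CPM in BaAQ, 5.08, 5.13 and 4.97 CPM in BEZO, and 6.03, 7.20 and 6.43 CPM in Control. The 3 groups lay apart, with BEZO between the other two. These are small numbers, from 28 reads in BaAQ 2 and BaAQ 3 to 104 reads in Control 2. LRAT fell to 0.478 of the Control level with BaAQ, with an interval of 0.372 to 0.615 (log2 -1.06 ± 0.17, adjusted p = 0.000351, edgeR). With BEZO the ratio was 0.748, with an interval of 0.595 to 0.940, and the gene did not pass (adjusted p = 0.132, edgeR).

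STRA6, the membrane receptor that takes up retinol from its plasma carrier, had 21.9, 21.1 and 21.9 CPM in BaAQ, 23.2, 28.3 and 25.9 CPM in BEZO, and 29.0, 29.3 and 31.7 CPM in Control. Again no group overlapped another. Its level fell to 0.696 of Control with BaAQ, with an interval of 0.606 to 0.798 (log2 -0.52 ± 0.10, adjusted p = 0.000955, edgeR). The BEZO ratio was 0.837, with an interval of 0.732 to 0.956 (adjusted p = 0.11, edgeR), and it passed without BEZO 2, with adjusted p = 0.0402 in a range over the alternatives of 0.0402 to 0.403.

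Among the 4 identifiers that oxidise retinol or retinal, 1 was lower in BaAQ. ALDH1A2, which makes most retinoic acid of the early vertebrate trunk, had 47.8, 46.0 and 40.8 CPM in BaAQ, 57.4, 53.8 and 53.3 CPM in BEZO, and 64.9, 62.4 and 62.5 CPM in Control. The 3 groups were apart, with BEZO again in the middle. It fell to 0.684 of the Control level with BaAQ, with an interval of 0.613 to 0.764 (log2 -0.55 ± 0.08, adjusted p = 6.24e-05, edgeR). The BEZO ratio was 0.846, with an interval of 0.760 to 0.942, and missed the threshold (adjusted p = 0.0593, edgeR). It passed in a fit of the BEZO and Control libraries alone, with adjusted p = 0.0392, and without BaAQ 3, with adjusted p = 0.0295, while the alternatives reached up to 0.215.

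ALDH1A3, a relative that makes retinoic acid in the ventral eye of vertebrates, had 8.19, 6.41 and 6.57 CPM in BaAQ, 6.52, 6.32 and 6.83 CPM in BEZO, and 8.52, 6.93 and 7.23 CPM in Control. The BEZO libraries lay just below the Control libraries and the BaAQ libraries overlapped them. The gene did not pass with either compound, and its ratio to Control was 0.916 (0.736 to 1.14) in BaAQ and 0.852 (0.686 to 1.06) in BEZO.

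RDH10 makes the retinal that ALDH1A2 uses. RDH10 ENSDARG00000058730 had 65.5, 64.6 and 49.0 CPM in BaAQ, 73.7, 65.0 and 70.7 CPM in BEZO, and 63.7, 75.1 and 69.2 CPM in Control. One library, BaAQ 3, was lower than the rest, and the groups overlapped. The BaAQ ratio to Control was 0.828, with an interval of 0.720 to 0.951 (log2 -0.273, adjusted p = 0.0789, edgeR). Without BaAQ 1 it passed with a log2 value of -0.35 and adjusted p = 0.0428 (edgeR). With 1 library left out the log2 value ran from -0.35 to -0.149, and over all alternatives the adjusted p ran from 0.0428 to 0.342. RDH10 ENSDARG00000012369 had 6.70, 4.81 and 4.69 CPM in BaAQ, 6.43, 6.68 and 4.66 CPM in BEZO, and 4.68, 4.85 and 4.84 CPM in Control. BaAQ 1, BEZO 1 and BEZO 2 lay above the narrow Control range, and the other exposed libraries lay in it or just below. Neither comparison passed (1.1 for BaAQ, with an interval of 0.834 to 1.45, and 1.21 for BEZO, with an interval of 0.928 to 1.58).

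DHRS3 is the reductase that returns retinal to retinol and is itself induced by retinoic acid in vertebrates. DHRS3 ENSDARG00000044803 had 11.1, 11.2 and 6.36 CPM in BaAQ, 10.7, 10.9 and 10.6 CPM in BEZO, and 10.5, 9.01 and 8.39 CPM in Control. BaAQ 3 stood below all other libraries for this gene, and without it the BaAQ log2 value was 0.22 in place of -0.001, with adjusted p = 0.436 (edgeR). DHRS3 ENSDARG00000044982 ran from 3.79 to 5.32 CPM over the 9 libraries, with overlapping groups. Neither passed with either compound.

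The 3 breakdown genes did not pass with either compound. CYP26A1, a direct retinoic acid target in vertebrates, had 11.8, 12.7 and 13.2 CPM in BaAQ, 16.9, 15.8 and 11.8 CPM in BEZO, and 12.4, 10.3 and 14.6 CPM in Control. The groups overlapped throughout. Its ratio to Control was 0.973 (0.788 to 1.2) in BaAQ and 1.17 (0.958 to 1.44) in BEZO, so a change as large as that of LRAT in BaAQ lies outside both intervals.

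CYP26B1, expressed in the vertebrate hindbrain and cartilage, had 56.8, 62.9 and 57.2 CPM in BaAQ, 67.9, 67.8 and 70.0 CPM in BEZO, and 60.8, 58.8 and 60.5 CPM in Control. All BEZO libraries lay above all Control libraries, and the BaAQ libraries spread around the Control ones. The BEZO ratio was 1.11, with an interval of 1.01 to 1.23 (adjusted p = 0.209, edgeR), and the BaAQ ratio 0.945, with an interval of 0.855 to 1.05 (adjusted p = 0.531, edgeR). CYP26C1, a hindbrain paralogue, had 18.4, 19.9 and 22.3 CPM in BaAQ, 23.4, 24.3 and 22.3 CPM in BEZO, and 19.4, 19.4 and 21.6 CPM in Control. Its BEZO libraries also lay above the Control libraries, with a ratio of 1.13 (0.979 to 1.3) that did not pass (adjusted p = 0.351, edgeR), while BaAQ gave 0.963 (0.832 to 1.11).

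For 4 of the 13 identifiers (STRA6, RBP2 ENSDARG00000093774, LRAT and ALDH1A2) every BaAQ library lay below every BEZO library and every BEZO library below every Control library. This order held for 0.663% of all tested genes. No other order of the groups was counted, and members were chosen with earlier results of these data known. The share is therefore given for scale and is not a test. In BEZO against Control 6 identifiers lay wholly below and 3 wholly above (9.58% and 15.2% of all tested genes, 24.8% in all). In BaAQ against Control 5 lay below and 0 above (9.63% and 18.4%, 28.0% in all). The order and these counts use CPM without the scaling factors (TMM) of the fit. Factors of Control 1, 2 and 3 were 0.981, 0.961 and 0.997, below those of BaAQ (1.016, 1.016 and 1.017). BEZO 1, 2 and 3 had 1.012, 0.988 and 1.015. CPM thus places exposed libraries mostly higher against Control than the fit does. DHRS3 ENSDARG00000044803, counted above, had 10.56 CPM in BEZO 3 and 10.5 CPM in Control 1. Overlap with factors applied was not tested.

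**Figure D2:**
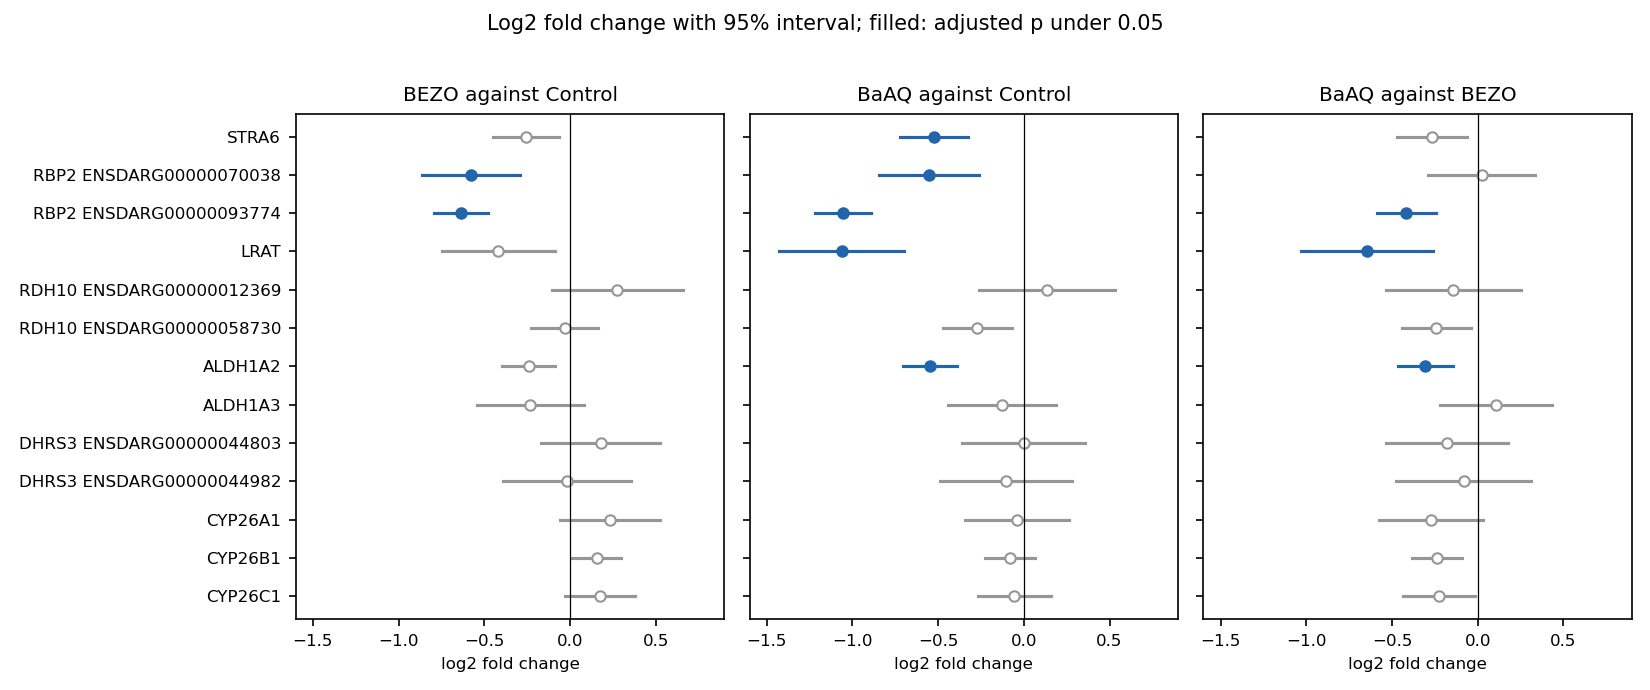
Log2 fold change (x axis) of each retinoid identifier (y axis) with its 95% interval from the fit, for BEZO against Control, BaAQ against Control and BaAQ against BEZO. Filled blue points passed at an adjusted p under 0.05: 2, 5 and 3 identifiers, all on the negative side.

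The compounds were also compared directly, at the same concentration and time. BaAQ embryos had less transcript than BEZO embryos for 3 of the 13 identifiers and more for 0 (23.1%), where 2.27% of all tested genes were lower, 2.56% higher and 4.84% passed in either direction. By library, 5 identifiers lay wholly below in BaAQ and 0 wholly above, against 9.80% and 12.4% of all tested genes. The median log2 difference was -0.24, beside -0.001 over all tested genes. Here too the shares are for scale and are not a test, because members were chosen with earlier results known. RBP2 ENSDARG00000093774 was at 0.749 of its BEZO level, with an interval of 0.665 to 0.843 (log2 -0.42 ± 0.08, adjusted p = 0.00382, edgeR), and passed under every alternative run. ALDH1A2 was at 0.809 of BEZO, with an interval of 0.723 to 0.905 (log2 -0.31 ± 0.08, adjusted p = 0.0248, edgeR). Leaving out BaAQ 2, BaAQ 3, BEZO 1 or BEZO 2 ended that call, with log2 values of -0.32, -0.24, -0.28 and -0.31 and adjusted p up to 0.109. LRAT was at 0.640 of BEZO, with an interval of 0.490 to 0.835 (log2 -0.64 ± 0.18, adjusted p = 0.0482, edgeR). The LRAT call sat at the threshold and ended in 13 of 15 alternatives, among them each library left out, with adjusted p from 0.0478 to 0.16, while its log2 value lay between -0.69 and -0.57.

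The other 10 identifiers did not pass between the compounds. For RBP2 ENSDARG00000070038 the ratio of BaAQ to BEZO was 1.01 with an interval of 0.819 to 1.26. The intervals were 0.722 to 0.957 for STRA6 (adjusted p = 0.139, edgeR), 0.672 to 1.02 for CYP26A1, 0.768 to 0.939 for CYP26B1 (adjusted p = 0.0556, edgeR) and 0.738 to 0.988 for CYP26C1. CYP26B1 passed without BaAQ 2, with adjusted p = 0.048 in a range over the alternatives of 0.048 to 0.171. A p that misses the threshold does not show that the compounds act alike. All 3 CYP26 estimates were negative, from -0.27 to -0.23 on the log2 scale, but the groups overlapped for CYP26A1 and CYP26C1.

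Other genes of the pathway were taken from lists of binding and transport proteins, enzymes, receptors and readouts of retinoic acid. Of 20 listed binding and transport symbols 13 were matched outside the retinoid members, to 14 identifiers of which 9 were tested. With BaAQ 1 of these 9 was lower and 0 higher, and with BEZO 2 were lower and 0 higher, with medians of -0.11 and -0.46. Over all tested genes 5.41% were lower with BaAQ and 3.35% with BEZO. Between BaAQ and BEZO 1 was higher and 2 lower (2.56% and 2.27% of all tested genes), with a median of 0.36. Both genes that passed against Control belong to the visual cycle, in which cellular retinaldehyde-binding protein carries the chromophore. The gene rlbp1a had 25.3, 27.4 and 28.1 CPM in BaAQ, 10.5, 8.15 and 13.6 CPM in BEZO, and 21.9, 25.8 and 26.8 CPM in Control. It was lower with BEZO alone (log2 -1.26 ± 0.13, adjusted p = 2.42e-06, edgeR), and the difference between the compounds passed as well (BaAQ over BEZO 1.32 ± 0.13, adjusted p = 2.08e-06, edgeR). The second gene of that protein, rlbp1b, had 8.63, 9.75 and 5.74 CPM in BaAQ, 9.99, 8.88 and 7.15 CPM in BEZO, and 18.0, 18.2 and 14.6 CPM in Control. Both exposed groups lay below Control, by log2 values of -1.13 ± 0.17 for BaAQ (adjusted p = 0.00011, edgeR) and -0.99 ± 0.16 for BEZO (adjusted p = 0.000487, edgeR).

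Among cellular retinoic acid-binding proteins, CRABP1 ENSDARG00000035904 had 14.1, 12.5 and 14.8 CPM in BaAQ, 19.6, 16.7 and 20.4 CPM in BEZO, and 14.6, 14.9 and 13.7 CPM in Control. Its BEZO libraries stood above all others, and BaAQ was lower than BEZO (log2 -0.46 ± 0.11, adjusted p = 0.0203, edgeR), a call that ended without BaAQ 2, BEZO 1 or BEZO 3. BEZO over Control was 0.35 ± 0.11 and missed the threshold (adjusted p = 0.059, edgeR) except without BEZO 2. The other identifier, CRABP1 ENSDARG00000045926, averaged 8.38 CPM in BaAQ, 6.36 CPM in BEZO and 8.29 CPM in Control, and its log2 values of -0.40 for BEZO against Control and 0.40 for BaAQ against BEZO did not pass. CRABP2 ENSDARG00000030449 averaged 24.2 ± 3.0 CPM in BaAQ, 31.6 ± 4.20 CPM in BEZO and 28.5 ± 3.49 CPM in Control (SD, n = 3). Its difference between the compounds (log2 -0.40 ± 0.11, adjusted p = 0.0444, edgeR) ended in 8 alternatives, among them the fit of these 2 groups alone, and the libraries overlapped. The other CRABP2 identifier, ENSDARG00000073978, averaged 1.49 ± 0.45 CPM in BaAQ, 0.72 ± 0.30 CPM in BEZO and 1.17 ± 0.14 CPM in Control (SD, n = 3) and did not pass in any comparison.

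**Figure D3:**
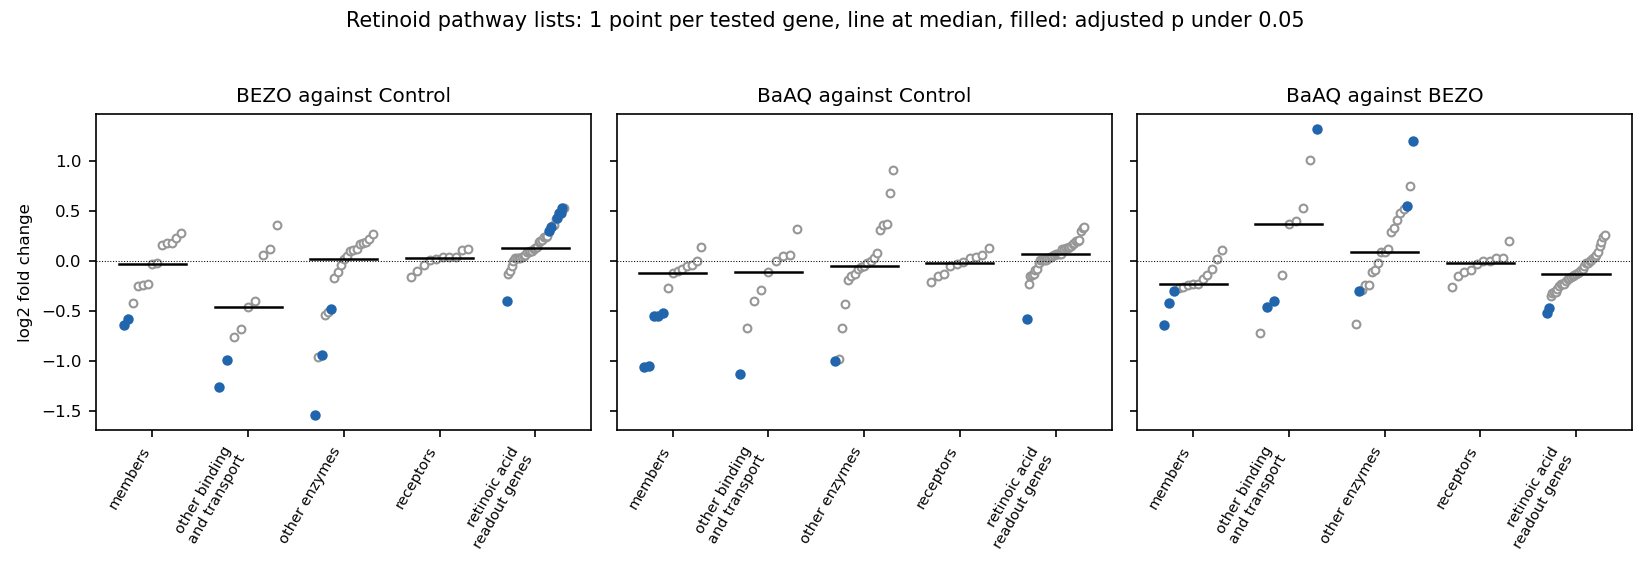
Log2 fold change (y axis) of every tested gene in the 5 retinoid lists (x axis) for the 3 comparisons, with the list median as a line and genes past an adjusted p of 0.05 filled. The receptors lie close to 0, and 6 retinoic acid readout genes passed on the positive side with BEZO.

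Of 37 listed enzyme symbols 24 were matched outside the retinoid members, to 23 identifiers of which 19 were tested. With BaAQ 1 was lower and 0 higher, and with BEZO 3 were lower and 0 higher, with medians of -0.06 and 0.02. The BaAQ count is near the 5.41% of all tested genes that were lower, and 3.35% were lower with BEZO. Between BaAQ and BEZO 2 were higher and 1 lower (2.56% and 2.27% of all tested genes), with a median of 0.09. RPE65 ENSDARG00000007480, the isomerase that regenerates the chromophore, had 12.1, 13.1 and 9.60 CPM in BaAQ, 7.87, 7.51 and 8.08 CPM in BEZO, and 25.1, 21.1 and 20.9 CPM in Control. The 3 groups were apart, and here BEZO lay lowest. The log2 fold change was -0.996 ± 0.12 with BaAQ (adjusted p = 1.45e-05, edgeR) and -1.54 ± 0.13 with BEZO (adjusted p = 9.42e-08, edgeR). BaAQ was higher than BEZO by 0.55 ± 0.14 (adjusted p = 0.0282, edgeR), a call that ended when BaAQ 1, BaAQ 2, BEZO 1, BEZO 2 or BEZO 3 was left out. The other 2 RPE65 identifiers did not pass in any comparison. RPE65 ENSDARG00000094752 averaged 24.0 CPM in BaAQ, 25.1 CPM in BEZO and 22.6 CPM in Control, and RPE65 ENSDARG00000054420 averaged 6.70 CPM in BaAQ, 6.08 CPM in BEZO and 6.44 CPM in Control.

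RGR, a retinal-binding opsin of the pigment epithelium and Müller glia in mammals, had 4.85, 4.19 and 3.76 CPM in BaAQ, 3.05, 2.84 and 3.0 CPM in BEZO, and 6.03, 4.43 and 6.36 CPM in Control. It fell with BEZO (log2 -0.94 ± 0.19, adjusted p = 0.00388, edgeR) and did not pass with BaAQ (-0.43 ± 0.18). RDH8, a photoreceptor retinol dehydrogenase, had 9.26 ± 1.37 CPM in BEZO and 12.5 ± 1.43 CPM in Control (SD, n = 3; log2 -0.48 ± 0.14, adjusted p = 0.0418, edgeR), a call that ended in 8 alternatives. Another dehydrogenase gene, rdh12l, was higher in BaAQ, at 3.05 ± 0.42 CPM, than in BEZO, at 1.32 ± 0.18 CPM (SD, n = 3). The log2 difference was 1.195 ± 0.26 (adjusted p = 0.0077, edgeR). Control lay between, at 1.86 ± 0.1 CPM (SD, n = 3), and neither compound passed against it. Those log2 values were 0.679 for BaAQ and -0.515 for BEZO (adjusted p = 0.0727 and 0.305, edgeR). ALDH1L1, which was on the list by its family name but acts in folate metabolism, was lower in BaAQ than in BEZO by a log2 value of -0.30 ± 0.07 (adjusted p = 0.0227, edgeR), and not without BaAQ 1, BaAQ 3, BEZO 1 or BEZO 2. The esterifying enzyme gene lratb.2 averaged 0.86 ± 0.20 CPM in BaAQ, 0.86 ± 0.28 CPM in BEZO and 1.70 ± 0.47 CPM in Control (SD, n = 3). Both exposed groups lay below Control for it, by log2 values of -0.98 ± 0.35 and -0.96 ± 0.34 that did not pass (adjusted p = 0.0827 and 0.106, edgeR).

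**Figure D4:**
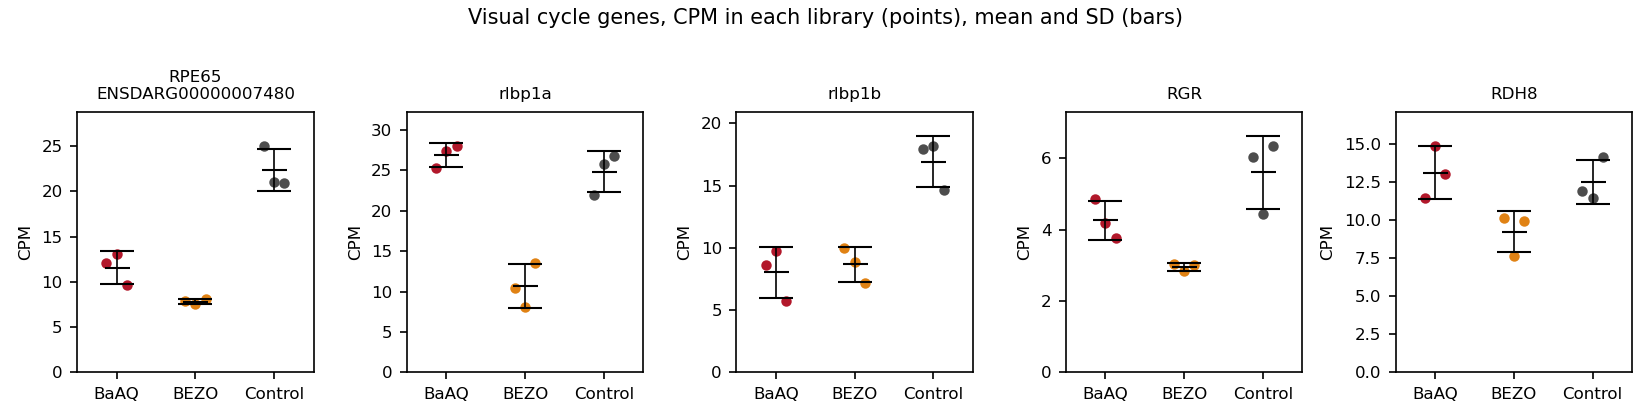
CPM (y axis, from 0) of 5 visual cycle genes in each BaAQ, BEZO and Control library (points) with mean and SD (bars). All 5 drawn passed as lower with BEZO. Listed binding, transport and enzyme genes that did not pass with BEZO, among them RPE65 ENSDARG00000094752 and RPE65 ENSDARG00000054420, are not shown. For RPE65 ENSDARG00000007480 and rlbp1b both exposed groups lie below Control, while rlbp1a is low in the 3 BEZO libraries alone, at 8.15 to 13.6 CPM.

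The list of nuclear receptors held retinoic acid receptors (raraa, rarab and RARG) and retinoid X receptors (RXRA, RXRB, rxrbb, rxrga and rxrgb), and none passed. All 10 listed receptor symbols were matched, to 10 tested identifiers, and their log2 fold changes ran from -0.21 to 0.12 with BaAQ and from -0.17 to 0.12 with BEZO. Between the compounds they ran from -0.26 to 0.20, and the count past the threshold was 0 in all 3 comparisons (edgeR). At an unadjusted p under 0.05, 0 receptors passed with BaAQ, 0 with BEZO and 1 between the compounds, and DESeq2 gave 0 in each at an adjusted p under 0.05.

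Genes listed here as readouts of retinoic acid mostly did not pass with BaAQ. The list mixes Hox genes with others such as NCOR1, FGF8 and ZNF503, and no direction was set for each gene beforehand. Its counts and medians therefore do not measure retinoic acid activity. Of 38 symbols reported here 32 were matched, to 35 tested identifiers. With BaAQ 1 of these was lower, with a median of 0.06, and with BEZO 6 were higher and 1 lower, with a median of 0.13. Between BaAQ and BEZO 0 were higher and 2 lower, with a median of -0.13. Of all tested genes 5.41% were lower with BaAQ, 3.09% were higher and 3.35% lower with BEZO, and 2.27% were lower in BaAQ than in BEZO. The list was built with many Hox genes, and of these hoxb1a, hoxb1b, HOXD4, HOXB4, HOXB6, HOXC4 and HOXD3 did not pass with BEZO. All 6 that rose with BEZO were Hox genes, which set position along the body axis. The largest change among them was in hoxb6b, with 18.2, 16.3 and 20.3 CPM in BaAQ, 23.6, 22.4 and 21.8 CPM in BEZO, and 14.8, 16.3 and 14.8 CPM in Control (BEZO over Control 0.53 ± 0.10 on the log2 scale, adjusted p = 0.00301, edgeR).

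HOXB5 ENSDARG00000054030 had 37.3, 32.3 and 34.8 CPM in BaAQ, 47.5, 46.5 and 49.6 CPM in BEZO, and 35.9, 32.6 and 32.3 CPM in Control. It rose with BEZO (0.48 ± 0.08, adjusted p = 0.000794, edgeR), and was lower in BaAQ than in BEZO (-0.47 ± 0.08, adjusted p = 0.00125, edgeR). HOXC5 (0.48 ± 0.11), HOXC6 (0.43 ± 0.10), HOXB3 (0.34 ± 0.06) and HOXB5 ENSDARG00000013057 (0.30 ± 0.08) rose with BEZO as well, with all BEZO libraries above all Control libraries. Of these, HOXC5 did not pass without BEZO 3 or Control 3, HOXC6 without BEZO 1, and HOXB5 ENSDARG00000013057 without BEZO 1, BEZO 2, BEZO 3 or Control 3. For HOXC5, HOXC6, HOXB3, hoxb6b and HOXB5 ENSDARG00000013057 the difference between the compounds did not pass (adjusted p from 0.0889 to 0.524, edgeR). By CPM the BaAQ libraries of these genes also lay above the Control libraries, though barely for hoxb6b, as for 18.4% of all tested genes. Their log2 values for BaAQ against Control were 0.33, 0.18, 0.17, 0.20 and 0.12, in that order. None of these passed (adjusted p from 0.0792 to 0.403, edgeR).

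TGM2 ENSDARG00000074094, a transglutaminase gene induced by retinoic acid in mammalian cells, had 14.8, 17.0 and 12.4 CPM in BaAQ, 19.6, 20.7 and 22.4 CPM in BEZO, and 24.0, 19.5 and 20.2 CPM in Control. It was lower in BaAQ than in Control (-0.58 ± 0.12, adjusted p = 0.00309, edgeR). It was also lower in BaAQ than in BEZO (-0.52 ± 0.12, adjusted p = 0.0148, edgeR), a call that ended without BaAQ 3, BEZO 2 or BEZO 3. The readout lower with BEZO was TGM2 ENSDARG00000070157, at 31.9 CPM in BEZO and 41.2 CPM in Control (-0.40 ± 0.11, adjusted p = 0.036, edgeR), named after its values were seen. It did not pass without BEZO 3, Control 1 or Control 2.

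**Figure D5:**
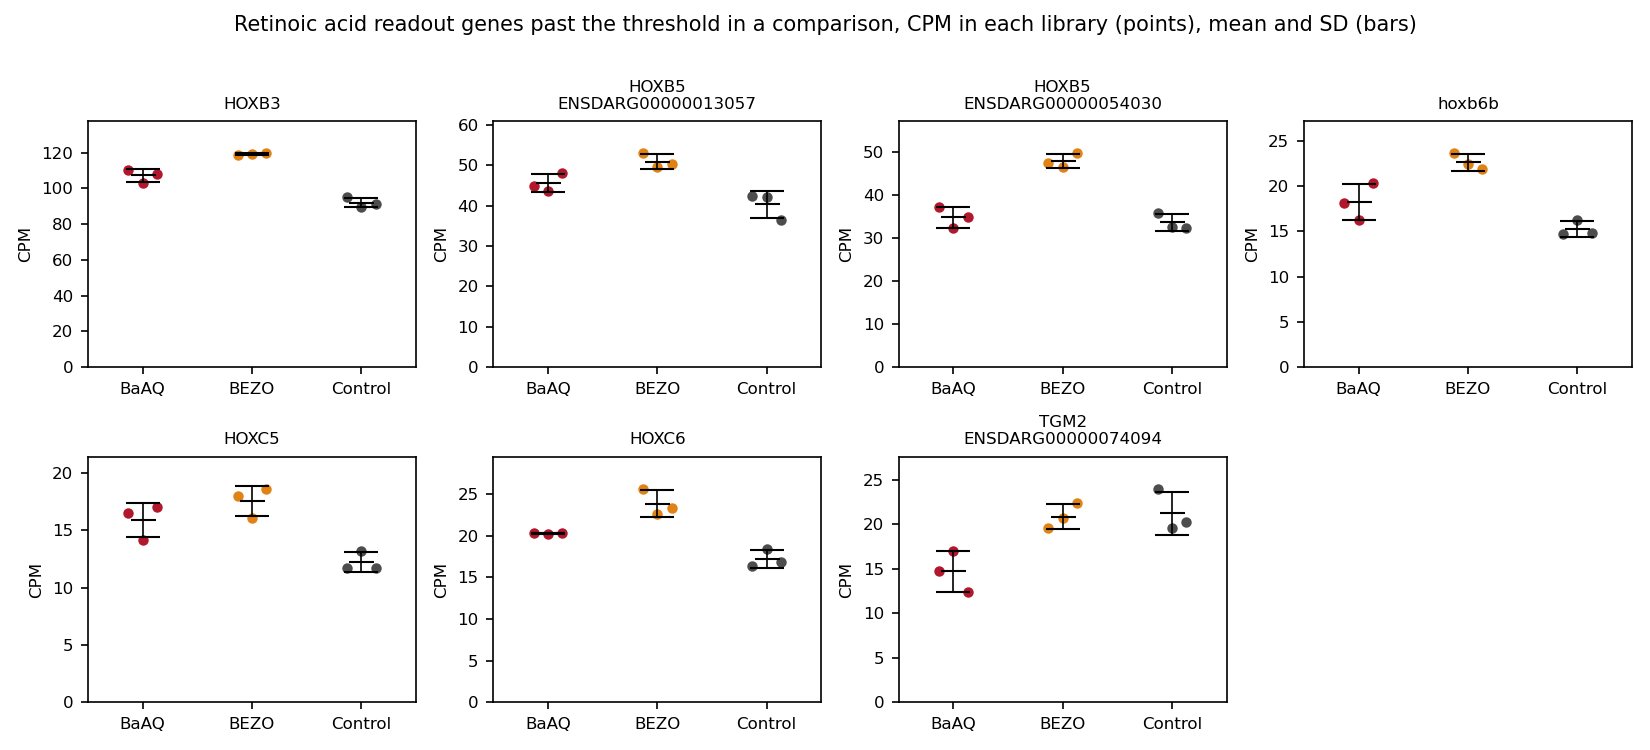
CPM (y axis, from 0) of 7 retinoic acid readout genes in each BaAQ, BEZO and Control library (points) with mean and SD (bars). The 7 were picked from readout genes that passed in a comparison, so most of the list is not drawn. TGM2 ENSDARG00000070157, which passed as lower with BEZO, is also not shown. BEZO libraries lie above Control libraries for the 6 Hox genes, and BaAQ libraries lie lowest for TGM2 ENSDARG00000074094.

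The genes most alike in pattern to the retinoid genes that passed were found by the root mean square difference of log2 CPM over the 9 libraries. Each gene's Control mean was subtracted first, and the search covered 14669 genes with a symbol and a mean of at least 1 CPM. Nearest to ALDH1A2 were FKBP9 at 0.041, a prolyl isomerase gene, and SFRP2 at 0.061, a secreted Wnt modulator gene. FMOD ENSDARG00000010294 at 0.060 and thbs2b at 0.075, both of the extracellular matrix, were nearest to STRA6. Nearest to LRAT were krt1-19e, a keratin gene, at 0.099 and APOB, an apolipoprotein gene, at 0.106. The distances were 0.118 for cdh26.2 and 0.135 for ca2 to RBP2 ENSDARG00000093774, and 0.094 for HAS3 and 0.107 for tuft1b to RBP2 ENSDARG00000070038. HAS3 was low, averaging 2.11 CPM in BaAQ, 2 CPM in BEZO and 3.08 CPM in Control, and did not pass in any comparison.

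In whole embryos, fewer cells of a type and less RNA per cell cannot be told apart. Markers of several cell types moved with the exposures, and their counts stand beside 5.41% of all tested genes lower and 4.82% higher with BaAQ, 3.35% lower and 3.09% higher with BEZO, and 2.27% lower and 2.56% higher in BaAQ than in BEZO. The 15 yolk and intestine markers summed to 11178 to 12543 CPM in BaAQ, 13898 to 15677 CPM in BEZO and 14628 to 15404 CPM in Control. Of these 13 were tested, of which 7 were lower and 0 higher with BaAQ, and 1 lower and 0 higher with BEZO. The 14 liver markers summed to 2462 to 2979 CPM in BaAQ, 3105 to 3306 CPM in BEZO and 2909 to 3465 CPM in Control, with 8 of 12 tested lower with BaAQ and 3 lower and 1 higher with BEZO.

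Markers of retinal pigment epithelium and melanophores, 15 identifiers with RPE65 among them, summed to 610 to 707 CPM in BaAQ, 708 to 762 CPM in BEZO and 789 to 856 CPM in Control. With BaAQ 8 of the 15 were lower, and with BEZO 4 were. The 12 tested photoreceptor markers were lower for 5 with BaAQ and 9 with BEZO, and the 15 identifiers summed to 304 to 331 CPM in BaAQ, 203 to 256 CPM in BEZO and 362 to 369 CPM in Control. Cartilage markers summed to 4045 to 4745 CPM in BaAQ, 4819 to 5507 CPM in BEZO and 5465 to 5871 CPM in Control, with 11 of 15 lower with BaAQ and 4 lower and 1 higher with BEZO. In BaAQ against BEZO the lower and higher counts were 5 and 2 for yolk and intestine, 4 and 0 for liver, 3 and 1 for pigment, 0 and 4 for photoreceptor and 7 and 0 for cartilage markers. For fast muscle markers those counts were 1 and 2, and for red cell markers 0 and 5. The part of these cell types in the retinoid values was not tested. Fast muscle markers were lower for 3 and higher for 1 of 13 with BaAQ, and lower for 3 with BEZO, at sums of 50167 to 55070 CPM in BaAQ, 51116 to 54698 CPM in BEZO and 55268 to 57466 CPM in Control. Red cell markers were higher for 4 of 12 with BaAQ, and lower for 4 and higher for 1 with BEZO, at sums of 1032 to 1414 CPM in BaAQ, 677 to 798 CPM in BEZO and 1112 to 1132 CPM in Control.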

How the data were processed

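Poly(A) RNA libraries of 9 vials were analysed. The deposited table gives raw counts of reads per Ensembl gene without normalization. The submitters' processing notes name CASAVA 1.8, FastQC, TopHat2, HTSeq, edgeR and the build Zv9. The options, order and strand setting are not given in the sources used here, so values of genes with an antisense neighbour are uncertain. Identifiers were paired with symbols by the reference table (20769 of 32434 had one), and a symbol absent there was searched without its final a or b. Genes passing filterByExpr entered an edgeR model (version 4.0.16, R 4.3.3; TMM, quasi-likelihood, 3 group means). Intervals are 95% intervals from the standard error and degrees of freedom of the fit. CPM were scaled to the library total without TMM factors, which ran from 0.961 to 1.017 and were mostly smaller for Control libraries. Groups were scored as apart or overlapping on these CPM. The log2 CPM used for correlations between libraries and for likeness in pattern did include those factors. Retinoid members and lists were chosen with earlier results of these data known. Every member was named, as were up to 6 genes per list and comparison with the smallest p past the threshold, CRABP2 and lratb.2 whatever their p, and the 2 genes most alike each member that passed. Further RPE65, CRABP1 and TGM2 identifiers were named after their values were seen. The genes rbp4 and lratb.1 could not be matched by symbol. Identifiers of the retinoid members were taken out of the other lists, so a listed symbol that led only to a member was counted as not matched. A further readout gene is not reported here, and the counts of that list leave it out. Alternatives were DESeq2 1.42.0, RLE size factors, a looser filter (10 reads in all) and a stricter filter (1 CPM), a block for the replicate number, a separate fit per pair of groups, and each library left out. The fit was also run on simulated data, with the common spread of these data given to every gene alike. Changes were set there only in genes with higher counts, so that run does not cover low-count genes. Intervals hold the spread between these vials as well as counting error, and the 3-read floors cover counting error only. Figures were drawn with matplotlib 3.10.9.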

Additional observations from a re-analysis of the deposited data

How the results depend on the processing

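Across the settings other than leaving out a library, the counts of genes past the threshold stayed within 1.5 times those reported: 1009 to 1391 for BEZO against Control, 1571 to 1968 for BaAQ against Control and 722 to 942 for BaAQ against BEZO. With 1 library left out they ran from 761 to 1502, 1276 to 1992 and 531 to 883. The counts moved by over 1.5 times without BEZO 1 (796) or BEZO 3 (761) for BEZO against Control, without Control 3 (1276) for BaAQ against Control, and without BEZO 2 (531) for BaAQ against BEZO. The count of retinoid identifiers past the threshold then ran from 1 to 3 for BEZO against Control, from 4 to 6 for BaAQ against Control and from 1 to 2 for BaAQ against BEZO. It was 1 for BEZO against Control without BEZO 3, Control 2 or Control 3, and 1 for BaAQ against BEZO without BaAQ 3, BEZO 1 or BEZO 2. STRA6, LRAT, ALDH1A2 and RBP2 ENSDARG00000093774 passed in BaAQ against Control under all 15 alternatives. With DESeq2 the adjusted p of LRAT for BaAQ against BEZO was 0.149.

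The replicate number as a block gave 1184, 1916 and 839 genes and 3, 5 and 2 retinoid identifiers, since ALDH1A2 passed for BEZO against Control (adjusted p = 0.0469) and LRAT did not pass for BaAQ against BEZO (adjusted p = 0.0617). Same-numbered libraries did not deviate together (correlations from -0.036 to 0.029), so the numbers are not taken as pairs.

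Directions turned only for genes that had not passed, and the cause was not tested. In BaAQ against Control, RLE size factors gave a log2 value of 0.000192 for DHRS3 ENSDARG00000044803 and the looser filter gave -0.00511 for RDH8. CRABP1 ENSDARG00000045926, at 9.68e-07 in that comparison, was at -0.0176 with DESeq2, -0.0057 with the looser filter and -0.0673 with the replicate block. With 1 library left out, the log2 values for BaAQ against Control ran from -0.153 to 0.0889 for CYP26A1, -0.134 to 0.0138 for CYP26C1, -0.143 to 0.223 for DHRS3 ENSDARG00000044803, -0.257 to 0.0140 for DHRS3 ENSDARG00000044982, -0.0688 to 0.234 for RDH10 ENSDARG00000012369, -0.0938 to 0.0968 for RDH8, -0.0206 to 0.0975 for rlbp1a, -0.0475 to 0.0547 for HOXB5 ENSDARG00000054030, -0.374 to 0.212 for CRABP1 ENSDARG00000045926, -0.338 to 0.143 for RPE65 ENSDARG00000054420 and -0.00384 to 0.0951 for RPE65 ENSDARG00000094752. For BaAQ against BEZO they ran from -0.0278 to 0.164 for ALDH1A3, -0.322 to 0.0432 for DHRS3 ENSDARG00000044803, -0.237 to 0.0329 for DHRS3 ENSDARG00000044982, -0.0886 to 0.194 for RBP2 ENSDARG00000070038, -0.281 to 0.0486 for rlbp1b, -0.248 to 0.211 for lratb.2, -0.228 to 0.253 for RPE65 ENSDARG00000054420 and -0.147 to 0.0048 for RPE65 ENSDARG00000094752. For BEZO against Control they ran from -0.0952 to 0.0536 for DHRS3 ENSDARG00000044982, -0.0875 to 0.0456 for RDH10 ENSDARG00000058730 and -0.102 to 0.0282 for TGM2 ENSDARG00000074094. Low counts limit lratb.2 (6 to 23 reads per library), CRABP2 ENSDARG00000073978 (4 to 22), rdh12l (12 to 40), LRAT (28 to 104) and RGR (29 to 88).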
